A study of Mus musculus with 28 samples.

Results

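Transcripts of the proteasome were followed in 4 populations of mouse CD4 T cells with and without an enhancer of Foxp3. The genes were taken by symbol, as every row named Psm with a letter from a to g and a number. That rule found 49 of the 23420 gene symbols in the files. One of them, Psmc3ip, is a meiotic recombination factor and not a proteasome subunit, so 48 genes remained and Psmc3ip was kept apart. The 28 libraries came from male Foxp3-gfp mice of 6 to 8 weeks. All mice carried a GFP reporter in Foxp3. The wild-type groups (WT) had the Foxp3-gfp allele and the groups titled KO had Foxp3-deltaCNS3-gfp, the same reporter allele without conserved non-coding sequence 3. Regulatory T cells (Treg) of the thymus, CD4 single-positive thymocytes sorted as non-Treg (CD4SP below) and 2 splenic Treg populations titled rTreg and aTreg gave 3 WT and 4 KO libraries each. The titles do not spell out r and a. The labels name littermates sorted together but not which libraries share an animal, so p-values here measure only the spread between these libraries, which may be technical.

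The proteasome is the large protease that degrades ubiquitin-tagged proteins in the cytosol and nucleus and makes most peptides shown on MHC class I. Its 20S core is a barrel of stacked alpha and beta rings, in which Psmb5, Psmb6 and Psmb7 carry the catalytic sites. Lymphocytes and interferon-treated cells replace these with Psmb8, Psmb9 and Psmb10, which gives the immunoproteasome. The 19S cap binds, unfolds and feeds in substrates through a base with a ring of ATPases (Psmc genes) and a lid. Psmd genes encode the lid, the other base subunits and some chaperones of cap assembly. PA28, made of Psme1 and Psme2, opens the core without ubiquitin and is also raised by interferon. Treg cells are known for strong T cell receptor and interleukin-2 signals in thymus and periphery, and their own proteasome makes the peptides that these T cells display.

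A few start sites are shown first, because the results turn on these genes. Psmb5 and Psmb8 are the constitutive and the inducible form of one catalytic subunit, Psmb9 is inducible too, and Psme1 and Psme2 encode the paired subunits of PA28. Each run is 220 bases, from 200 before to 20 after the RefSeq start site (GRCm38.p6), 5′ to 3′ on the gene's strand. Capitals mark matches on either strand to the core of the interferon-stimulated response element (GAAA, any 2 bases, GAAA), the gamma-activated site (TTCNNNGAA), the element of the proteasome gene regulators NFE2L1 and NFE2L2 (TGACNNNGC) and the GC box (GGGCGG).
Psmb5: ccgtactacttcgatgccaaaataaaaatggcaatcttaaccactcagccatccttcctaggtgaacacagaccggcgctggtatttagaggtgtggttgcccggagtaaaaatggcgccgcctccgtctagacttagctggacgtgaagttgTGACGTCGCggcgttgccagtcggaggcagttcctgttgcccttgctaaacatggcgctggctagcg
Psmb8: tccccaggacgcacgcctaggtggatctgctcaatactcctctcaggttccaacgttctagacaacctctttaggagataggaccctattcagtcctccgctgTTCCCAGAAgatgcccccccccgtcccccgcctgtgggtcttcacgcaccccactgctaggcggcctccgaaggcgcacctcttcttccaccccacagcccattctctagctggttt
Psmb9: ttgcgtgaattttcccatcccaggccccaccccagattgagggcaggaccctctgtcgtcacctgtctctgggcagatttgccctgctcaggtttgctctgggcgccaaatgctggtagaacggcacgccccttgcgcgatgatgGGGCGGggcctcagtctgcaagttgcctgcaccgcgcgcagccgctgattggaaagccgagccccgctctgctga
Psme1: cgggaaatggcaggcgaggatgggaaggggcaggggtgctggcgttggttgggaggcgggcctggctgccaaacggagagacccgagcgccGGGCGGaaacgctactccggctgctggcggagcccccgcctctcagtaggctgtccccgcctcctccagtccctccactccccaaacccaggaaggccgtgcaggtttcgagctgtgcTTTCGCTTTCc
Psme2: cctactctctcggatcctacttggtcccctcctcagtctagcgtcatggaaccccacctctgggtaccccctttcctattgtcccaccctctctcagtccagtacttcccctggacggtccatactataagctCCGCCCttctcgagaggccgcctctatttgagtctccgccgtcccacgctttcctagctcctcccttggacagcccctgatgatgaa

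These stretches lie at chr14:54617976-54618195 (minus strand, Psmb5), chr17:34197995-34198214 (plus, Psmb8), chr17:34187311-34187530 (minus, Psmb9), chr14:55578294-55578513 (plus, Psme1) and chr14:55591082-55591301 (minus, the first of 2 starts listed for Psme2). The Psmb5 run held 1 NFE2L core, the Psmb8 run 1 gamma-activated site core, and the Psmb9 and Psme2 runs 1 GC box each. The Psme1 run held 1 GC box and 1 response element core that begins 10 bases after the start. Over the 300-base windows of all 32851 starts in the table, 3.44% held the response element core, 8.30% the gamma-activated core, 12.4% the NFE2L core and 35.7% the GC box. Of the 49 symbols, 41 were found in that table with 44 windows, and among them the response element core was in 5 (Psmb3, Psmd4, Psmd9, Psme1, Psmg4). The gamma-activated core was in 3 (Psmb8, Psmd2, Psmg1) and the NFE2L core in 6 (Psmb5, Psmb6, Psmc6, Psmd12, Psmd9, Psme4). The shares of the 44 windows were 11.4% for the response element core, 6.82% for the gamma-activated core and 13.6% for the NFE2L core. The GC box was in 23 symbols and 54.5% of the 44 windows. The ETS core CCGGAAG was in 15 symbols and 36.4% of the 44 windows, beside 8.86% of all windows. The CCAAT box was in 15 symbols and 34.1%, beside 37.4% of all windows. A match of letters is a description and not a bound site. Psmb8 and Psmb9 sit in the MHC region of chromosome 17, and the Psmb9 window overlaps that of the peptide transporter gene Tap1 on the other strand by 275 bases. Psme1 and Psme2 are neighbours on chromosome 14, with 5912 bases between the genes.

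Counts in genes were 22037995 to 40754492 per library. Of the reads in genes, outside genes or ambiguous, 42.3 to 49.7% lay outside genes, called the no-gene share below. Levels are given as CPM, the usual counts scaled to library size, with sizes corrected by the trimmed mean of M-values (TMM). Mean Foxp3, the gene that carries the reporter, was 519 to 652 CPM in the Treg groups and 1.44 to 3.36 in the CD4SP groups. The CD4SP groups differed in other Treg markers. By the edgeR test used below, 4 of 6 were higher and 1 lower in KO than in WT CD4SP cells. The 6 summed to 239 to 258 CPM in WT and 295 to 516 in KO CD4SP libraries. Il2ra averaged 9.24 and 48.4 CPM, Ikzf2 56.2 and 102, and Foxp3 3.36 and 1.44. The part of such transcripts was not tested. One library stood apart in its group: in KO CD4SP replicate 2, genes of immature thymocytes summed to 596 CPM, against 169 to 188 in the other 3, and genes of proliferation to 1723 against 1044 to 1115. In bulk RNA, fewer cells of a type and less RNA per cell cannot be told apart, which holds for every difference below.

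Proteasome transcripts were present at similar levels in all 8 groups. For the 46 genes with a mean of at least 10 CPM, the highest group mean was in the median 1.22 times the lowest. The same figure was 1.44 over the 8390 genes of all kinds with a mean of at least 10 CPM, of which 42.2% exceeded 1.5 times. The 2 sets share this floor but were not matched in level, so the figures are not a like comparison. Only Psme2 (1.60 times) and Psmg1 (1.55), a chaperone that assembles the alpha ring, exceeded 1.5 times among the 46, which is 4.35%. The most even was Psmd1, the large scaffold subunit of the 19S base, at 1.076 times. Within groups, the median SD of the 46 was 0.106 on the log2 scale, beside 0.122 for all genes above the same floor, again not matched in level.

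Between genes, levels were compared only as CPM per kilobase of the principal transcript (CPM per kb). PA28 alpha (Psme1) was highest with 368 CPM per kb as the mean of the groups, followed by the inducible catalytic subunit Psmb8 with 346, the alpha subunit Psma7 with 295 and the beta subunit Psmb2 with 277. Core subunits spread widely, from 294.9 for Psma7 down to 20.4 for Psma3 in the alpha ring. The 6 ATPases of the base lay closer together, between 85.9 (Psmc6) and 151 (Psmc4). In the lid, Psmd8 stood at 157 and Psmd3 at 12.4. Assembly chaperones, which are not part of the finished particle, were lower, from 12.7 (Psmd9) to 60.7 (Psmd10), with a median of 40.0. The nuclear activators Psme3 (PA28 gamma) and Psme4 (PA200) had 23.1 and 7.85. These values depend on the transcript chosen for each gene, and reads that fit several places went uncounted.

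**Figure D1:**
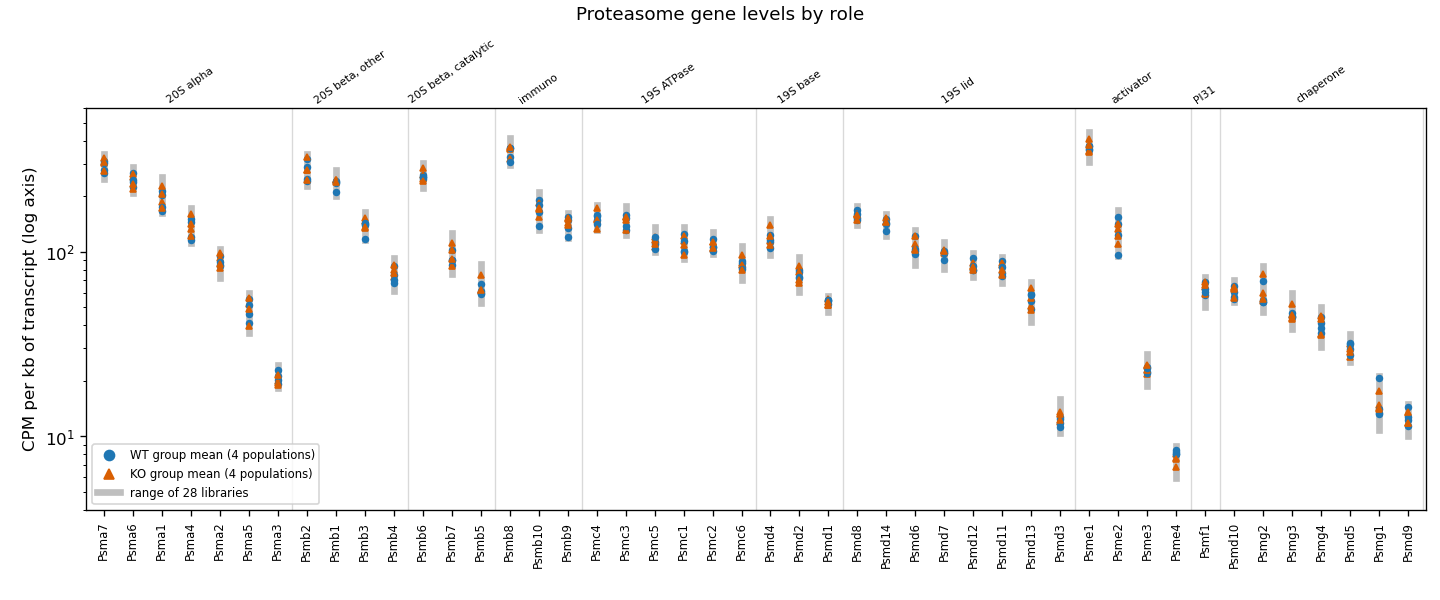
Level of 46 proteasome genes in CPM per kb of principal transcript (log axis), ordered by role and, within a role, by level. Blue circles are the 4 WT group means, orange triangles the 4 KO group means and grey bars the range of all 28 libraries; Psme1 (368) and Psmb8 (346) lie highest and Psme4 (7.85) lowest.

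Psmb11 and Psma8 were nearly silent. Psmb11 is the catalytic subunit of the thymoproteasome, known from epithelial cells of the thymic cortex. It had 9 to 19 counts in each of the 7 thymic Treg libraries, 1 to 3 in the 7 CD4SP libraries and 0 to 7 in the 14 splenic ones. Over whole groups this was 45 counts in WT and 48 in KO thymic Treg cells, 9 and 9 in CD4SP, 1 and 11 in rTreg, and 9 and 5 in aTreg cells. Of 7 listed markers of thymic epithelium, 4 entered the test. Of these 4, 2 were higher in WT thymic Treg than in CD4SP cells, beside 26.8% of all genes. In WT rTreg against thymic Treg cells 2 were lower, beside 16.7% of all genes. The 7 listed markers summed to 12.5 to 14.1 CPM in WT thymic Treg, 9.53 to 11.6 in WT CD4SP and 7.02 to 8.55 in WT rTreg libraries. They summed to 20.7 to 31.4 in WT aTreg libraries, where Epcam alone averaged 22.1. Group means in WT thymic Treg and CD4SP cells were 4.37 and 1.21 CPM for Epcam, 0.909 and 0.0684 for Aire, and 0.407 and 0.0336 for Krt8. Ccl25 (6.59 and 8.22) and Prss16 (0.699 and 1.29) went the other way, with the lower mean in thymic Treg cells. Foxn1 and Krt5 averaged at most 0.0894 CPM in the thymic Treg groups and were at 0 in the other groups. The part of such cells was not tested. Psma8, the alpha subunit of germ cells, had 0 to 15 counts per library and was the 1 gene of the 48 that did not pass the filter on low counts. Psmc3ip passed it with 127 to 453 counts, and 47 proteasome genes entered the tests beside it. Psmb11 is 1 of the 47 and passed the filter only through thymic Treg libraries, where it was highest. Its calls between thymic Treg cells and other populations follow in part from that entry and are description only.

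The inducible catalytic genes were set beside their constitutive partners. Per length, Psmb8 exceeded Psmb5 by 4.64 to 6.71 times in all 28 libraries, from 4.64 to 5.45 in the 14 thymic and from 5.21 to 6.71 in the 14 splenic ones. Psmb10 exceeded Psmb7 by 1.31 to 2.43 times. Psmb9 stayed below Psmb6, at 0.472 to 0.673 times. The ratio of Psmb10 to Psmb7 was 1.91 to 2.43 in the 7 rTreg libraries and 1.43 to 1.63 in the 7 thymic Treg libraries, with no overlap. Its lowest value, 1.31, was in KO CD4SP replicate 2, where the other 3 KO libraries read 1.63, 1.96 and 1.74. Annotated copies named Psmb5-ps, Psmb6-ps, Psmb6-ps2 and Psmb7-ps2 could take or hide reads of the constitutive genes, so the size of these ratios is uncertain. Psme2 has a coding copy, Psme2b, and its reads may be split or lost in the same way.

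**Figure D2:**
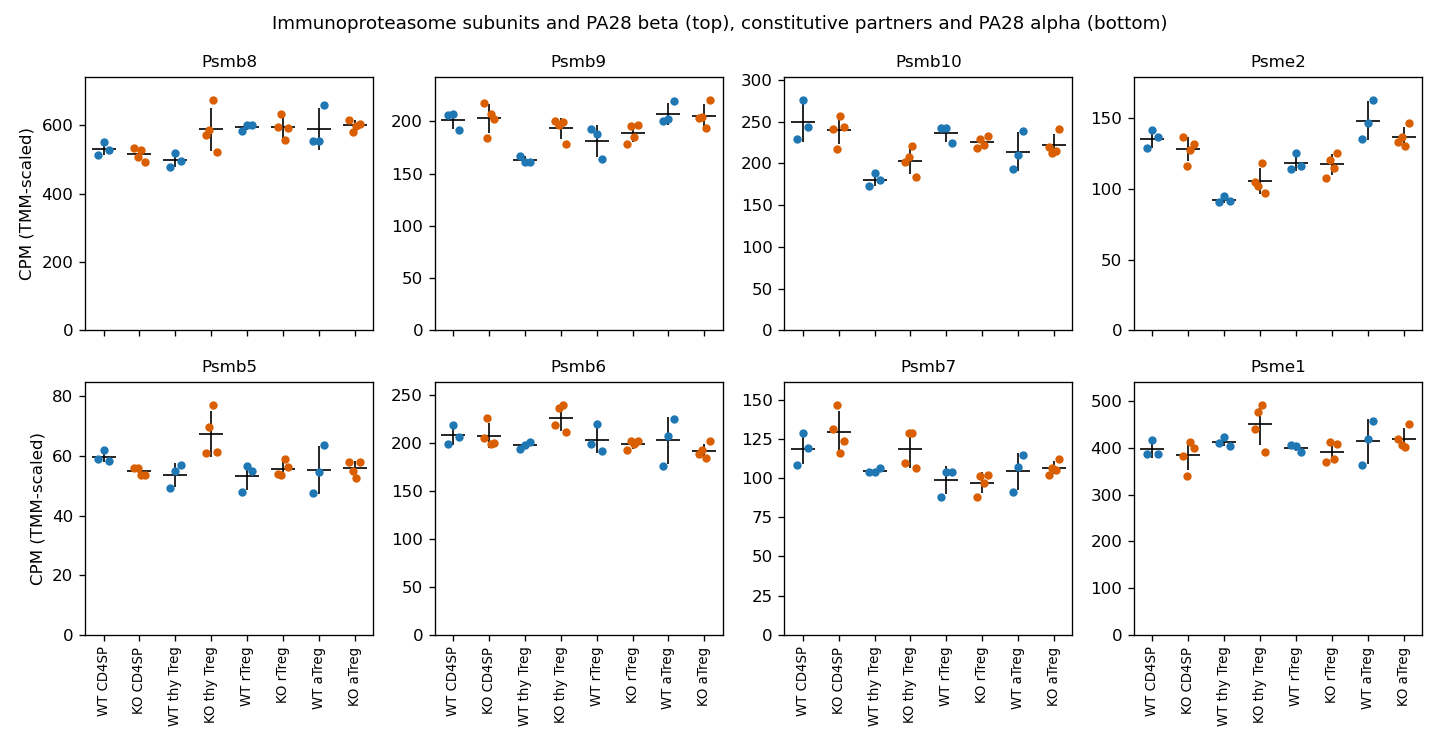
CPM of the 3 immunoproteasome subunits and Psme2 (top row) and of the constitutive counterparts and Psme1 (bottom row) in each library (blue WT, orange KO), with group mean and SD as black lines; linear axes from 0. Psme2 has its lowest group mean in WT thymic Treg cells (90.8 to 94.9) and its highest in WT aTreg cells (135 to 163), while Psme1 overlaps across populations.

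The first comparison asked how the proteasome differs between WT Treg cells and non-Treg CD4 cells of the thymus. Of 47 genes, 17 were lower and 2 higher by edgeR's quasi-likelihood test at an adjusted p of 0.05, where 48.3% of all 13338 genes tested passed in either direction (26.8% higher, 21.6% lower). The median log2 fold change of the members was -0.16, against 0.03 over all genes. PA28 beta (Psme2) read 90.8, 94.9 and 91.3 CPM in Treg and 128, 142 and 136 in CD4SP libraries. Treg libraries were thus all below, by a log2 fold change of -0.55 (SE 0.0778, adjusted p = 1.025e-06). Psmb10 read 172, 189 and 181 against 230, 276 and 243 CPM (-0.47, SE 0.0803, adjusted p = 2.075e-05). Psmb9 read 167, 161 and 161 against 206, 207 and 191 (-0.31, SE 0.07, adjusted p = 0.0006494). Both inducible subunits were lower without overlap, but the third was not: Psmb8 overlapped, at 498 ± 19.4 against 531 ± 18.1 CPM (mean ± SD, n = 3 each), adjusted p = 0.3071.

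The lower genes came from most parts of the particle: 4 of 7 alpha subunits, 3 of 4 non-catalytic beta subunits, 4 of 8 lid subunits, 1 of 6 ATPases and 2 of 7 chaperones. Psmb2, a non-catalytic beta subunit, fell by 0.39 on the log2 scale, Psmg1 by 0.62 and the alpha subunits Psma4 and Psma1 by 0.38 and 0.35. The constitutive catalytic genes did not pass, with log2 fold changes of -0.16 for Psmb5, -0.07 for Psmb6 and -0.18 for Psmb7, nor did Psme1 (0.06) or Psme3 (-0.03). Higher in Treg cells were Psmb11, from the counts above, and the lid subunit Psmd13 at 118 ± 6.46 against 97.6 ± 13.2 CPM (log2 fold change 0.28, adjusted p = 0.0383). Psmb11 entered this test only through the thymic Treg libraries. Proliferation genes were lower in the same Treg libraries, 10 of 13 past the test with a median of -0.80. Markers of other cells were higher there, 10 of 11 myeloid, 6 of 9 B cell and 6 of 8 dendritic genes, with myeloid sums of 306 to 441 CPM against 93.1 to 99.7 and B cell sums of 35.1 to 38.4 against 7.52 to 9.23. The part of proliferation, B and dendritic cells was not tested. With the no-gene share as a covariate 6 members passed, with the summed myeloid markers 9, and without WT CD4SP replicate 2 there were 12.

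In WT mice, Psme2, Psmb8 and Psmb10 were higher in both splenic Treg populations than in thymic Treg cells. The 2 comparisons share the WT thymic Treg libraries, so each is given by its own values. In rTreg cells, 4 members were higher and 1 lower than in thymic Treg cells, where 30.6% of all genes passed (13.9% higher, 16.7% lower). The 4 were Psmb10, Psme2, Psmb8 and the beta subunit Psmb3 (0.24, adjusted p = 0.02989). Psmb8 read 584, 602 and 601 CPM in rTreg libraries, all above the 479, 518 and 496 of thymic Treg libraries (log2 fold change 0.26, SE 0.0735, adjusted p = 0.008337). Psmb10 read 242, 242 and 224 CPM (0.39, adjusted p = 0.0005472) and Psme2 114, 125 and 116 (0.36, adjusted p = 0.0008501). Psmb9 was at 181 ± 15.4 against 163 ± 3.66 CPM and did not pass (0.15, adjusted p = 0.1003), nor did Psmb5 (-0.01), Psmb6 (0.04), Psmb7 (-0.09), Psme1 (-0.04) or Psme3 (0.10). The lower gene was Psmb11, which entered the test only through the thymic Treg libraries. The non-member Psmc3ip was lower as well (-0.74). Beside these genes, 10 of 11 myeloid markers (119.9 to 128 CPM in rTreg against 306 to 441 in thymic Treg libraries) and 6 of 6 genes of immature thymocytes (109 to 119 against 182 to 205) were lower in rTreg cells. B cell markers were higher, 6 of 9 (70.1 to 85.8 against 35.1 to 38.4), and 7 of 13 proliferation genes were lower. The part of B cells, immature thymocytes and proliferation was not tested.

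In WT aTreg cells 13 members were higher and 3 lower than in thymic Treg cells, beside 40.3% of all genes (19.9% higher, 20.4% lower). All 3 inducible catalytic genes were among the 13, with log2 fold changes of 0.35 for Psmb9, 0.25 for Psmb8 and 0.24 for Psmb10. Psme2 rose most, with 135, 147 and 163 CPM in aTreg libraries, above every thymic Treg library (0.68, SE 0.0779, adjusted p = 4.521e-08). The others were Psma1, Psma3 and Psma4 (0.32) of the alpha ring, Psmb2 and Psmb3 of the beta ring, the ATPases Psmc2 (0.21), Psmc3 and Psmc5, and the chaperone Psmd10. Lower were Psmb11, the ubiquitin receptor Psmd4 (-0.23) and the ATPase Psmc4 (-0.16). Of these, Psmb11 had entered the test only through the thymic Treg libraries. Constitutive Psmb5 (0.04), Psmb6 (0.04) and Psmb7 (-0.01) did not pass, nor did Psme1 (414 against 413 CPM) or Psme3 (0.11). The aTreg libraries differed among themselves: replicate 1 summed to 6792 CPM over all members and replicates 2 and 3 to 7648 and 8377. The count of 16 became 20 without replicate 1 and 6 without replicate 3, and 10 without WT thymic Treg replicate 1. Beside these genes, 8 of 9 B cell markers, 9 of 9 activated Treg and 10 of 13 proliferation genes were higher in aTreg cells, and 6 of 6 of immature thymocytes lower; B cell markers summed to 103 to 130.4 CPM and those of immature thymocytes to 73.7 to 86.2. Their part was not tested. With the myeloid markers as a covariate 2 members passed for rTreg and 16 for aTreg cells.

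Between the 2 splenic populations of WT mice, 5 members were higher in aTreg cells and 1 lower, where 37.9% of all genes passed (19.9% higher, 18.1% lower). The rise of Psme2 was 0.32 as a log2 fold change (SE 0.0776, adjusted p = 0.0015), with every aTreg library above every rTreg library. Psmd10, the 19S assembly chaperone also called gankyrin, read 85.7, 100.1 and 94.6 against 76.9, 83.2 and 79.2 CPM (0.23, adjusted p = 0.01029). Psma5 overlapped but passed, at 63.4 ± 9.18 against 51.2 ± 2.24 (0.31, adjusted p = 0.01061). Psma4 (0.27) and Psmb9 (0.20) were also higher and the chaperone Psmd5 was lower (-0.20). Psmb8 (-0.01), Psmb10 (-0.14), Psmb5 (0.05), Psmb6 (-0.01), Psmb7 (0.08), Psme1 (0.05) and Psme3 (0.01) did not pass. Proliferation genes rose with these members, 12 of 13 with a median of 1.42, and summed myeloid markers were 334 to 423 CPM in aTreg and 120 to 128 in rTreg libraries. The part of proliferation was not tested, and with the myeloid sum as a covariate 1 member passed. The count was 13 without WT aTreg replicate 1, 3 without replicate 2 and 11 with the size factors of DESeq2.

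The same 4 comparisons in KO mice use other libraries throughout, and so repeat the measurement in another genotype. Between aTreg and rTreg cells, 6 members were higher and 2 lower in KO (41.6% of all genes, 21.7% higher and 19.9% lower), and 4 of the higher ones were those of WT: Psma4, Psma5, Psmd10 and Psme2. That is 4 of 5 WT and 4 of 6 KO genes, and 40 of 47 members had the same sign. Agreement between genotypes was not counted over all genes in any of the 4 comparisons. It therefore cannot be read as particular to the proteasome. Psma5 read 63.5, 62.2, 56.7 and 61.0 CPM in KO aTreg libraries and 45.0, 51.6, 48.6 and 52.0 in KO rTreg libraries, with no overlap (log2 fold change 0.30, SE 0.0821, adjusted p = 0.003963). Psme2 read 133, 136, 130.02 and 146 against 108, 120, 115 and 125 (0.22, adjusted p = 0.01009), again with no overlap. Psmd10 (0.18) and Psma4 (0.22) were also higher. The other 2 higher genes were Psma1 (0.25) and the ATPase Psmc1 (0.19), and the lower ones were Psmc4 (-0.16) and Psmd4 (-0.17). The inducible catalytic genes did not pass, at 0.01 for Psmb8, 0.12 for Psmb9 and -0.02 for Psmb10, nor did Psmb5 (55.8 against 55.7 CPM), Psmb6 (-0.05), Psmb7 (0.13), Psme1 (0.10) or Psme3 (0.01). The count of 8 was 5 without KO rTreg replicate 1, without KO rTreg replicate 3 and without KO aTreg replicate 3, 14 when only these groups were fitted and 1 with the myeloid covariate, where 10 of 11 myeloid genes were higher in aTreg cells (235 to 278 against 104 to 128 CPM). Proliferation genes were higher too, 10 of 13, and their part was not tested.

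Thymic Treg against CD4SP cells gave 12 higher and 8 lower members in KO (56.5% of all genes, 30% higher and 26.5% lower), with a median of -0.05. Psma1, Psma4, Psmb2, Psmb10, Psme2 and Psmg2 were lower in both genotypes, 6 of 17 WT and 6 of 8 KO genes. Psmd13 was higher in both, as was Psmb11, which entered the test only through thymic Treg libraries. In the 19S base, 4 of 6 ATPases and 2 of 3 other subunits were higher in KO Treg cells. Psmd4, the ubiquitin receptor, read 201, 179, 187 and 179 CPM in KO Treg and 151, 153, 153 and 151 in KO CD4SP libraries (0.30, SE 0.0671, adjusted p = 0.0004691). Psmd2 (0.31), Psmb5 (0.30), Psmc3 (0.24), Psme1 (0.23), Psmc4 (0.19) and Psmb8 (0.19) were also higher, whereas Psmg2 (-0.33), Psma1 (-0.29), Psme2 (-0.28), Psmb10 (-0.24), Psmd5 (-0.24) and Psme4 (-0.23) were lower. Psmb6 (0.13), Psmb7 (-0.13), Psmb9 (-0.07) and Psme3 (0.08) did not pass. Beside these, 11 of 11 myeloid genes were higher in the Treg cells (496 to 1125 against 88.6 to 239 CPM), and 5 of 6 genes of immature thymocytes (139 to 168 against 169 to 596) and 7 of 13 of proliferation were lower. The 239 and the 596 were both from KO CD4SP replicate 2. The remaining KO CD4SP libraries had 88.6 to 105 and 169 to 188 CPM. With the myeloid sum as a covariate 4 of the 47 passed, and the part of immature thymocytes and proliferation was not tested.

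Against KO thymic Treg cells, 14 members were lower and 0 higher in KO rTreg (42.9% of all genes, 19.6% higher and 23.3% lower), and 8 lower and 2 higher in KO aTreg cells (41.9%, 20.6% higher and 21.3% lower). At an unadjusted p under 0.05, where 23.2% of all genes were higher, 3 members were higher in rTreg cells: Psmd5 (0.15, adjusted p = 0.06103), Psme2 (0.15, adjusted p = 0.07049) and Psmb10 (0.15, adjusted p = 0.08361). The rTreg fall included Psma5 (-0.39, SE 0.0819, adjusted p = 0.0003987), Psmb7 (-0.29), Psmb5 (-0.27), Psmc1 (-0.26), Psmc4 (-0.22), Psme1 (-0.20) and Psmb6 (-0.19). Psmb8 (0.01), Psmb9 (-0.04) and Psme3 (0.07) did not pass. In aTreg cells Psmc4 read 188, 196, 188 and 191 against 245, 256, 259 and 230 CPM (-0.38, SE 0.0526, adjusted p = 1.444e-06), and Psmd4 (-0.37), Psmd13 (-0.39), Psmb5 (-0.27) and Psmb6 (-0.24) were lower too. Psme2 (0.37, adjusted p = 6.187e-05) and Psma3 (0.18) were higher, as in WT. Psmb7 (-0.15), Psmb8 (0.03), Psmb9 (0.09), Psmb10 (0.13), Psme1 (-0.10) and Psme3 (0.08) did not pass. Psmc4, Psmd4 and Psmb11 were lower and Psme2 and Psma3 higher in aTreg than thymic Treg cells of both genotypes, and no member passed in opposite directions. Psmb11 had entered the test only through thymic Treg libraries. Psme2 and Psma3 were the only ones of the 13 higher WT genes that were higher in KO. Only 23 of 47 members had the same sign in both genotypes, with medians of 0.07 in WT and -0.06 in KO. For rTreg against thymic Treg cells 26 had the same sign, with medians of 0.05 and -0.12. The rTreg count fell to 2 with the no-gene share as a covariate (42.3 to 45.0% in KO thymic Treg, 48.6 to 49.7% in KO rTreg libraries) and to 0 with the myeloid sum (496 to 1125 and 104 to 128 CPM); both measures split these groups without overlap. B cell markers were higher, 6 of 9 in rTreg and 8 of 9 in aTreg cells, and all 6 of immature thymocytes were lower in both. Proliferation genes were lower in rTreg cells, 12 of 13. The part of these was not tested. The rTreg count was 9 without KO thymic Treg replicate 3 or KO rTreg replicate 1 and 9 when only these groups were fitted, and the aTreg count was 3 with the myeloid sum.

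**Figure D3:**
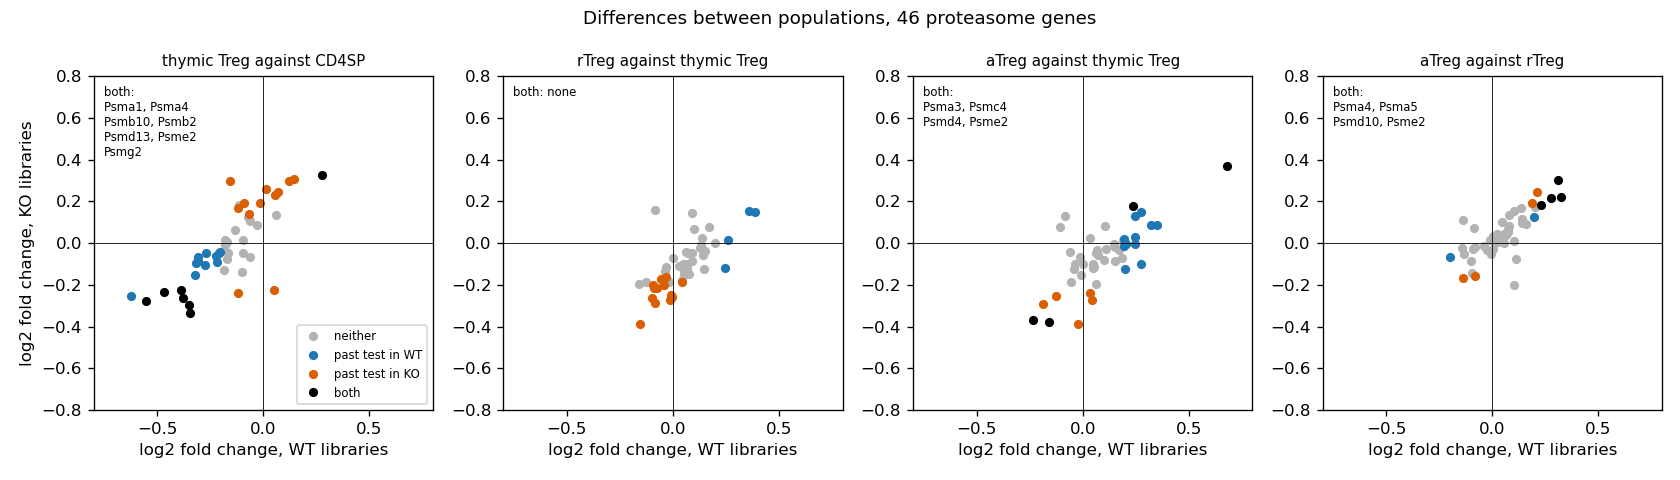
Log2 fold changes of 46 proteasome genes between populations in WT (horizontal) and KO libraries (vertical), 1 panel per comparison and with Psmb11 left out; colours show in which genotype a gene passed the edgeR test at an adjusted p of 0.05. Genes that passed in both genotypes are named in each panel. Of 47 members, 40 had the same sign in aTreg against rTreg cells and 33 in thymic Treg against CD4SP cells. Against thymic Treg cells the number was 26 for rTreg and 23 for aTreg cells.

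The central comparison, KO against WT, sets the libraries without the enhancer beside those with it. In thymic Treg cells, of 47 members, 4 were higher and 1 lower in KO than in WT, 10.6% of them, where 9.34% of all genes passed (4.21% higher, 5.13% lower). The share past the test was therefore near the background. In direction, 43 of 47 estimates were above 0, with a median log2 fold change of 0.16, beside 0.02 over all genes. At an unadjusted p under 0.05, 22 of 47 were higher and 1 lower, beside 13.8% and 12.7% of all genes. Psmb5 had 61.1, 69.8, 77.2 and 61.3 CPM in KO libraries, each above the WT values of 49.2, 54.9 and 56.9 (log2 fold change 0.33, SE 0.0865, adjusted p = 0.017). For Psmb8 the KO libraries gave 571, 586, 674 and 523 CPM and the WT libraries 479, 518 and 496, again without overlap (0.24, SE 0.069, adjusted p = 0.02566). Both forms of this catalytic subunit thus rose. Psmb9 read 200.1, 197, 199 and 179 against 167, 161 and 161 (0.25, adjusted p = 0.01716), with 1 KO library apart from the other 3. Psmb3 read 109, 123, 113 and 105 against 89.8, 89.2 and 91.1 (0.32, SE 0.0799, adjusted p = 0.01202).

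The 1 lower gene was Psme4, an activator known for work in the nucleus, with KO libraries at 38.6, 52.0, 39.0 and 48.4 CPM and WT libraries at 57.9, 56.9 and 50.6 (-0.31, SE 0.0841, adjusted p = 0.01992), where KO replicate 2 lay within the WT range. Psmb6 (0.20, adjusted p = 0.06965), Psme2 (0.19, adjusted p = 0.09321) and Psmb7 (0.18, adjusted p = 0.1976) missed the threshold. For these genes all 4 KO libraries were above all WT ones, for Psmb7 narrowly (lowest KO 106.7, highest WT 106.3 CPM). How many of all genes separate the libraries in this way was not counted. Psmb10 (0.17), Psme1 (0.13) and Psme3 (0.07) did not pass either. No ATPase, lid, alpha or chaperone gene passed; their medians by role were 0.17, 0.15, 0.15 and 0.12. The 4 estimates below 0 were those of Psme4, Psmd5 (-0.13), Psmb11 (-0.07) and Psma3 (-0.02).

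Several other measures separated the same libraries. The no-gene share was 42.3 to 45.0% in KO and 46.3 to 49.3% in WT thymic Treg libraries. With that share as a covariate 0 members passed, and the estimates shrank to 0.12 for Psmb5, 0.08 for Psmb8, 0.17 for Psmb9 and 0.12 for Psmb3. Over all genes 45 passed in that fit. In this population the share and the genotype do not overlap and cannot be told apart. Myeloid genes, 4 of 11 past the test, summed to 869, 1125, 553 and 496 CPM in the KO libraries, above the 441, 333 and 306 CPM of the WT libraries. With their sum as a covariate 0 members passed too, at estimates of 0.36 for Psmb5, 0.26 for Psmb8, 0.28 for Psmb9 and 0.23 for Psmb3. Genes of proliferation (7 of 13 higher), of the activated Treg list (6 of 9 higher) and of resting T cells (3 of 7 lower) moved with the genotype. Genes of immature thymocytes (1 of 6 lower) summed to 139 to 168 CPM in KO and 182 to 205 in WT libraries. B cell markers summed to 50.1 to 54.8 against 35.1 to 38.4 CPM, although 0 of 9 passed as higher and 1 as lower. The part of all these lists was not tested. The count of 5 also hung on single libraries. It was 2 without WT replicate 1, WT replicate 2 or KO replicate 3, 3 without WT replicate 3 and 13 without KO replicate 4. It was 1 when all WT libraries numbered 1 were left out, where Psmb3 was the gene that remained, and 1 when only the compared groups were fitted.

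**Figure D4:**
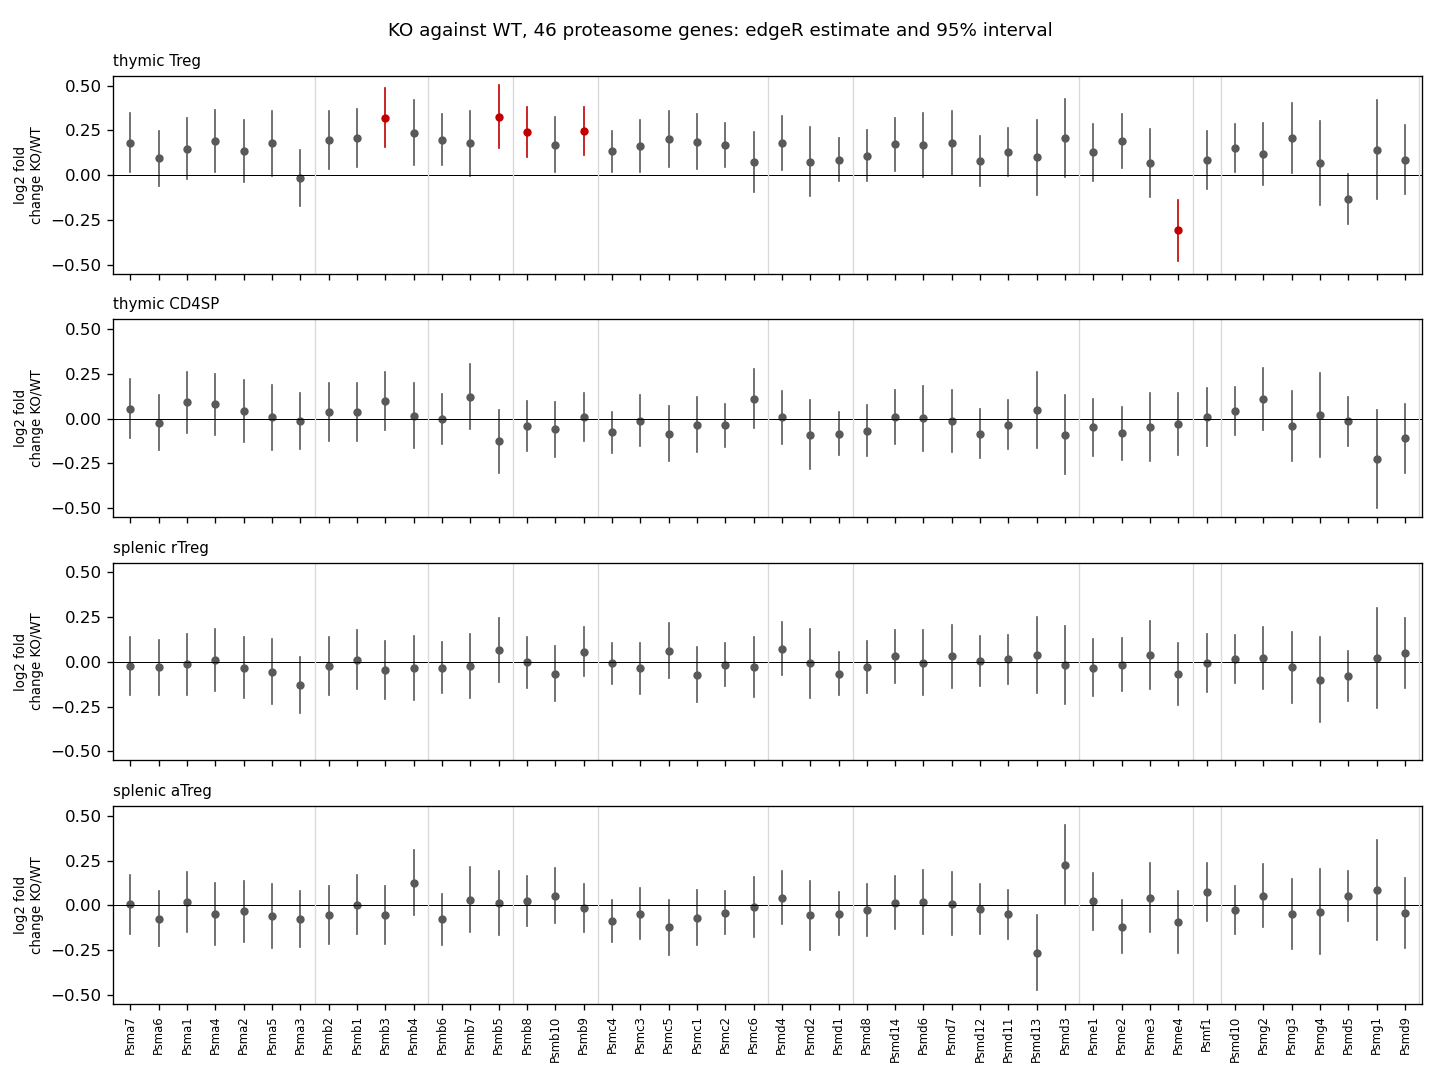
Log2 fold change of KO against WT for 46 proteasome genes (edgeR estimate with its 95% interval), 1 panel per population, in the order of roles and with Psmb11 left out; red marks an adjusted p under 0.05. In thymic Treg cells most points lie above 0 and Psmb3, Psmb5, Psmb8, Psmb9 and Psme4 are red; in the other 3 panels the points scatter around 0 and none is red.

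In the other populations no member passed between genotypes. In CD4SP cells 0 of 47 passed edgeR's test at an adjusted p of 0.05, 0 at an unadjusted p under 0.05 and 0 by DESeq2, beside 0.195% of all genes for the adjusted and 6.21% for the unadjusted test. In rTreg cells the counts were 0, 1 (Psmb11) and 0, beside 0.135% and 6.16%. In aTreg cells they were 0, 2 and 0, beside 0.03% and 6.73%, and the 2 were Psmd13 (-0.27, adjusted p = 0.5833) and Psmd3 (0.23, adjusted p = 0.7317). The medians were -0.02, -0.02 and -0.03. The 95% intervals for Psmb8 were -0.18 to 0.10 in CD4SP, -0.14 to 0.14 in rTreg and -0.12 to 0.16 in aTreg cells, and for Psmb9 -0.12 to 0.14, -0.08 to 0.19 and -0.15 to 0.12. Psmb10 had estimates of -0.06, -0.07 and 0.05 in that order. Those of Psmb5 were -0.13, 0.07 and 0.01, and those of Psme2 -0.08, -0.02 and -0.12. Estimates of Psmb6, Psmb7, Psme1 and Psme3 in the 3 populations lay between -0.08 and 0.12.

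Whether the KO effect in thymic Treg cells differs from that elsewhere was tested as a difference of effects, and no member passed. Against CD4SP cells the counts were 0 past edgeR's adjusted test, 12 at an unadjusted p under 0.05 and 1 by DESeq2, beside 0.615% of all genes for the adjusted and 13.8% for the unadjusted test. Psmb5 had the largest difference there, 0.45 (SE 0.122, adjusted p = 0.0837). Against rTreg cells the counts were 0, 10 and 0, beside 0.03% and 9.88%, and against aTreg cells 0, 13 and 1, beside 0.847% and 16.3%. The medians of the members were 0.17, 0.16 and 0.17. These 3 tests share the thymic Treg libraries.

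Related genes were followed from lists set together with the tests. Of 20 tested cofactors and regulators of the proteasome, 0 passed between KO and WT in any population. Over all genes, 9.34% passed in thymic Treg cells and 0.03 to 0.195% in the other populations. In thymic Treg cells the median of the 20 was -0.06, with 9 estimates above 0, beside a median of 0.16 for the proteasome genes. Pomp, the maturation factor of the core, was higher in aTreg than in thymic Treg cells of WT mice (0.51, adjusted p = 9.868e-05). Nfe2l2, a regulator of proteasome genes under oxidative stress, was far lower in thymic Treg than in CD4SP cells, at 68.5 against 237 CPM in WT (-1.79, adjusted p = 4.364e-16) and 66.0 against 205 in KO (-1.64). The ubiquitin shuttle Ubqln4 (0.85 in WT, 0.84 in KO) and Vcp, the p97 segregase (0.48 and 0.63), were higher in the Treg cells. In WT thymic Treg against CD4SP cells 4 of the 20 cofactors were higher and 6 lower, which is 50% and near the 48.3% of all genes.

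Of 12 genes of MHC class I antigen processing, 3 were higher in KO thymic Treg cells, beside 4.21% of all genes: Pdia3 (0.30, adjusted p = 0.000831), H2-D1 (0.34) and Calr (0.20). Between WT aTreg and thymic Treg cells 8 of 12 were higher and 0 lower (12 of 12 estimates above 0), beside 19.9% and 20.4% of all genes, with Tapbpl (0.76) and H2-K1 (0.49) leading, beside all 3 inducible catalytic subunits. Between WT thymic Treg and CD4SP cells 4 of the 12 were higher and 2 lower, which is 50% and near the 48.3% of all genes. The interferon list of 16 genes gave 5 higher and 8 lower in WT rTreg against thymic Treg cells, beside 13.9% and 16.7% of all genes, with Gbp3 (1.55) and Gbp2 (1.54) higher and Irf7 (-1.10) lower. In KO against WT thymic Treg cells it gave 2 higher, Gbp3 (0.47) and Oas1a (0.52), and 1 lower, Irf9 (-0.22).

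Summed over the 48 members, single libraries ranged from 6792 to 8377 CPM. In all 4 populations the lowest WT library was the one numbered 1, at 7373 in CD4SP, 6830 in thymic Treg, 7080 in rTreg and 6792 in aTreg cells. In KO mice replicate 1 was lowest in rTreg cells only. In WT aTreg cells 46 of 47 members were at their lowest of the 3 libraries in replicate 1. The library with the lowest sum had the highest no-gene share in 4 of 8 groups. KO thymic Treg libraries summed to 7647, 8033, 8304 and 7195, above the WT values of 6830, 7096 and 7097.

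**Figure D5:**
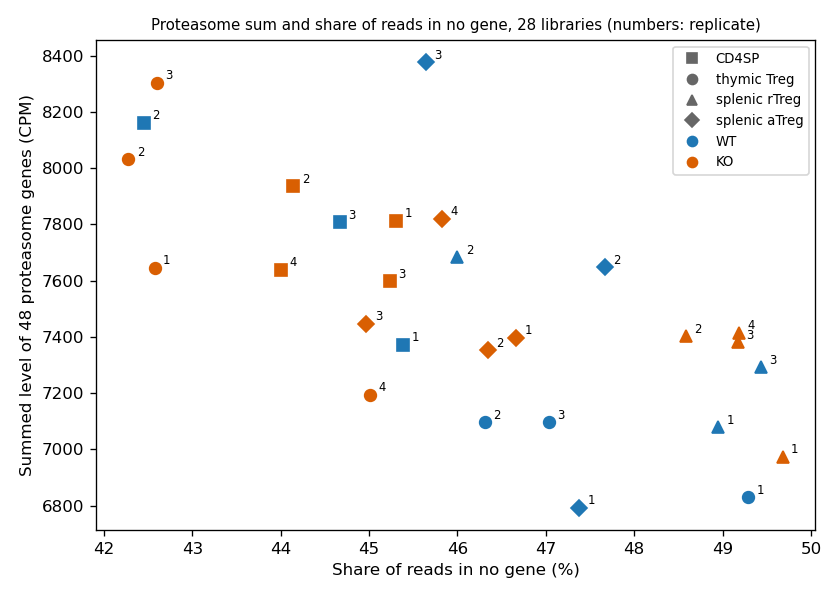
Summed level of the 48 proteasome genes (CPM) against the no-gene share (%) for the 28 libraries; shape gives the population, colour the genotype and the small number the replicate. The 4 KO thymic Treg circles (42.3 to 45.0%) lie left of the 3 WT ones (46.3 to 49.3%) and above them (7195 to 8304 against 6830 to 7097 CPM).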

How the data were processed

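RNA of 28 libraries had been extracted with TRIzol, amplified by SMART and sequenced as read pairs on a HiSeq instrument, per the labels' protocols. Trimmomatic, STAR, HTSeq and the mm10 build are named in the submitters' processing notes. Their versions and settings, the annotation and the use of strand are not given, so a gene and its antisense or overlapping neighbour may share reads. What was deposited is a raw count for each gene symbol, as HTSeq writes it. Rows that name no gene stayed out of library sizes and tests: no gene 42.3 to 49.7% and ambiguous 0.608 to 0.763% of reads in genes, no gene or ambiguous, and multiply mapped 22.8 to 30.4% of all rows' sum. No 2 libraries of a group agreed within sampling noise (chi-square per degree of freedom 7.31 to 39.6).

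Genes were tested with edgeR 4.0.16 (R 4.3.3, TMM factors 0.970 to 1.04, filterByExpr, quasi-likelihood F test). A single model with 8 group means took all 28 libraries (20 residual degrees of freedom), and p-values were adjusted by Benjamini-Hochberg over 13338 genes with a threshold of 0.05. Every comparison with a common group shares its libraries. Alternatives were DESeq2 1.42.0, its size factors (RLE), no filter, a replicate block, the compared groups alone, 2 covariates and left-out libraries. Lengths came from GENCODE M21 (GRCm38, APPRIS principal transcript), where all 49 symbols matched, and promoters from RefSeq (GRCm38.p6, 250 bases before to 50 after a start).

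The members and lists were chosen with earlier results of these data known. Named in every comparison were Psmb5 to Psmb10 and Psme1 to Psme3, then up to 5 members past the test with the smallest p in each direction and up to 3 genes of each other list. Other members named with a value were chosen after their values were seen.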

Additional observations from a re-analysis of the deposited data

Results flagged for a closer look

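In 4-library groups, 116 sets of values were examined for 1 library far from the other 3, for which chance alone gives about 5% of sets, and 7 were found. In KO thymic Treg cells Psmb9 was 179 CPM (178.51) in replicate 4 and 197 to 200.1 in the others. In KO CD4SP cells Psme4 was 57.5 in replicate 3 and 49.6 to 50.8 in the others. In KO rTreg cells Psmc4 was 227 in replicate 3 against 207 to 210.1, and the summed proteasome level was 6974 in replicate 1 against 7382 to 7415. In KO aTreg cells Psme3 was 74.3 in replicate 3 (60.8 to 62.9 in the others), Psmb2 was 258 in replicate 4 (229 to 233) and Psmc1 was 182 in replicate 3 (169.6 to 171). No cause was tested.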

How the results depend on the processing

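Counts are of proteasome genes past the adjusted threshold. KO against WT in thymic Treg cells (5) gave 8 by DESeq2, 1 with the compared groups alone, 0 with either covariate (no-gene share, myeloid sum), 2 without KO replicates 1 and 2 together and 1 without the 4 WT libraries numbered 1, an alternative chosen after seeing the data. Leaving out single libraries gave 2 to 13. WT thymic Treg against CD4SP (19) gave 6 with the no-gene share, 9 with the myeloid sum and 12 to 20 without single libraries. WT rTreg against thymic Treg (5) gave 2 with the myeloid sum and 4 to 6, and WT aTreg against thymic Treg (16) gave 6 to 20. WT aTreg against rTreg (6) gave 11 by DESeq2, 11 with its size factors, 1 with the myeloid sum and 3 to 13. KO thymic Treg against CD4SP (20) gave 4 with the myeloid sum and 17 to 21. KO rTreg against thymic Treg (14) gave 8 without a filter, 2 with the no-gene share, 0 with the myeloid sum, 9 with the compared groups alone, 6 without KO thymic Treg replicates 1 and 2, and 9 to 19. KO aTreg against thymic Treg (10) gave 3 with the myeloid sum and 8 to 9. KO aTreg against rTreg (8) gave 5 with the no-gene share, 1 with the myeloid sum, 14 with the compared groups alone and 5 to 7. The KO effect in thymic Treg cells less that in CD4SP or in aTreg cells (0 each) gave 1 each by DESeq2, and 0 to 1 and 0 to 2 without single libraries. KO against WT in the other populations stayed at 0 in every alternative run.

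In KO rTreg against thymic Treg cells, estimates below 0 turned positive with the no-gene share as a covariate for Psmc4 (0.0127), Psmc1 (0.0825), Psmb7 (0.0331), Psmb5 (0.0113), Psmb6 (0.0878) and Psme1 (0.0193), and with the myeloid sum for Psmc1 (0.0504) and Psmb7 (0.0230); the cause was not tested. Of 66 calls of named genes, 63 were kept with other size factors, 58 without a filter, 64 by DESeq2, 40 with the no-gene share and 20 with the myeloid sum.

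Libraries of 1 genotype with the same number in different populations had a mean correlation of their deviations of 0.157 (31 of 42 pairs over 0.1), against -0.0608 (7 of 108) for different numbers. Those of the 2 genotypes in 1 population had 0.0704 (5 of 12) for the same and -0.0233 (8 of 36) for different numbers. The higher values for the same number are a hint from the data, not the design: not every pair was over 0.1 and the labels do not say what a number stands for, so the number was not taken as a pairing. With the replicate block KO against WT in thymic Treg cells gave 9, the KO effect less that in CD4SP cells 1, and the 5 named calls were kept. With the number within genotype as the replicate block, all 61 named calls between populations were kept. Depth limits what can be said of Psmb11 and Psma8, which had 0 to 19 and 0 to 15 counts per library.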
